A study of Mus musculus with 2 samples.

Results

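The genes described here are 38 genes of glycolysis and of the response to low oxygen, matched by symbol among the 27998 genes of the count matrices of mouse lung organoids. They comprise 3 transporters of glucose and lactate, 16 glycolytic enzymes, 3 regulators of glycolytic and pyruvate flux, 3 genes of oxygen sensing and 13 further targets of hypoxia-inducible factors (HIFs). All 38 were found in both libraries, and each held at least 100 unique molecular identifiers (UMIs, the counted RNA molecules) over the deposited barcodes. Organoids were grown from alveolar type 2 (AT2) cells of C57BL/6 Sftpc-CreERT2;R26R-Tomato mice given tamoxifen, mixed with lung stromal cells. PBS was added to the control culture and the inflammatory cytokine IL-1β to the other, and each culture gave 1 library of single-cell RNA-seq. The Cre is driven by the surfactant protein C promoter and marks AT2 cells, while the stromal cells were grown separately and carry no such mark. Which animals gave the cells of each culture is not given in the sources used here, and the study's methods state an age range for most of its experiments without tying it to these cultures. The comparison asked how IL-1β shifts these genes in AT2 cells and in the damage-associated transient progenitors (DATPs) that arise from them.

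Glycolysis splits glucose to pyruvate. Cells that run it fast import glucose through GLUT transporters, turn pyruvate into lactate with lactate dehydrogenase and export the lactate with a proton through MCT4, the product of Slc16a3. HIF-1α, encoded by Hif1a, is made continuously and is marked for degradation by oxygen-dependent prolyl hydroxylases, the products of the Egln genes. When these enzymes slow down the protein accumulates and binds the core motif ACGTG or GCGTG before many genes of glycolysis, so its activity is set largely by protein stability and less by its mRNA. In the lung, AT2 cells make surfactant and renew the alveolar epithelium, and AT1 cells form the thin gas-exchange surface.

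The control library held 33965848 UMIs in 2101 barcodes and the IL-1β library 41220175 UMIs in 3066 barcodes, and 11 barcode sequences occurred in both. With 1 library per condition no test between conditions was possible. Intervals are exact 95% intervals for counting error only, they leave out any difference between cultures, and cells of 1 library are not replicates. Clusters were named from marker genes other than the 38 members, and these members were left out of the clustering. The control library gave 948 AT2-lineage cells (AT2, primed and cycling AT2), 211 AT1-like cells, 104 DATP-like cells and 793 stromal cells. The IL-1β library gave 2031, 402, 86 and 475. Levels are a gene's summed UMIs in a class per 1000000 UMIs of that class (CPM). A sum over a class cannot tell fewer expressing cells from less RNA per cell.

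The DATP-like name rests on Cldn4, Krt8, Krt19, Sprr1a, AW112010, Cdkn1a and Gdf15, which together reached 1591 CPM in control DATP-like cells against 490 CPM in control AT2-lineage and 1425 CPM in control AT1-like cells. With IL-1β the sums were 6719, 957 and 2615 CPM. The control DATP-like cells still held AT2 markers, with Sftpc at 79.7% of its AT2-lineage level, against 29.6% in the IL-1β library, and treatment and the makeup of the 2 DATP-like classes cannot be told apart. The 86 IL-1β cells formed a cluster of their own in a fine clustering, led by F3, Sprr1a, Tpm2 and Lgals3. In the coarser clustering that defined the other classes, 49 of them lay in a cluster named AT1-like and 37 in AT2-lineage clusters. When each library was clustered separately, all 86 were among 100 cells named DATP-like. The coarser clustering named 25 control cells DATP-like. Free RNA was present, since Col1a2 in the epithelial classes stood at 1.87% to 2.65% of its stromal level and Sftpc in stromal cells at 3.803% and 5.92% of its AT2-lineage level. A level at or below 5.92% of that in another class of the same library cannot be told apart from free RNA. Doublets remain, since only 3 of 5142 cells were marked. Cycling markers summed to 108 CPM in control AT2-lineage cells and to 7.07 CPM in those of the IL-1β library.

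Promoters are shown for some of the members that stood far higher with IL-1β in DATP-like cells, to place the HIF core motif beside the values that follow. Each promoter shown holds a match. Others with a larger ratio there than Ldha, at 5.06, are not shown, among them Slc2a1 at 7.48 and Tpi1 at 7.30. The lines therefore do not tie the ratios to the motif. The RefSeq table (GRCm38.p6) held 34 of the 38 members; Slc2a3, Bnip3l, Ndrg1 and Ndufa4l2 had no entry. In the 250 bases before a start site, ACGTG or GCGTG on either strand occurred for 31 of these 34 genes, counting any of their start sites. The same search found it for 41.5% of all 27025 genes. Counting any start site favours genes with more of them. Taken by single start site, a match occurred in 76.9% of the 52 entries of members and in 38.6% of all 32851 entries. The palindrome CACGTG holds ACGTG on both strands and counts as 2 overlapping matches. Base composition, in which CpG-rich promoters differ from others, was not matched. A match is a description of letters and no evidence that a factor binds there. Each line below gives 60 bases before the start site, 5′ to 3′ on the gene's own strand, with the matches in capitals and no base of an annotated exon.
Slc16a3, lactate exporter, chr11:120948993-120949052, plus strand: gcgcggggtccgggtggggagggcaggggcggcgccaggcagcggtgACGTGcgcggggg
Ldha, lactate dehydrogenase, chr7:46845731-46845790, plus strand: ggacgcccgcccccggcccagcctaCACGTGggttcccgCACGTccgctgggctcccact
Pgk1, phosphoglycerate kinase, chrX:106186929-106186988, plus strand: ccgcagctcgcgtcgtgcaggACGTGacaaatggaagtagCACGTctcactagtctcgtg
Pfkp, phosphofructokinase subunit, chr13:6648788-6648847, minus strand: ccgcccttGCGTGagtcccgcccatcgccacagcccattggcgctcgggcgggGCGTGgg
Bnip3, mitophagy receptor, chr7:138909585-138909644, minus strand: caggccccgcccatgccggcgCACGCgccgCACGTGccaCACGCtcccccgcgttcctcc
Ero1l (Ero1a in RefSeq), endoplasmic reticulum oxidase, chr14:45318619-45318678, minus strand: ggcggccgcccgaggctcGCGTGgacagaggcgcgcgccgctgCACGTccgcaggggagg
Egln3, prolyl hydroxylase, chr12:54204065-54204124, minus strand: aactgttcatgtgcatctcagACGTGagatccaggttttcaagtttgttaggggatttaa
The window of Bnip3 held 4 matches and that of Ldha 3, while Egln3 had a single match in its 250 bases. Eno2, Gpi1 and Tpi1 had none in theirs, though Tpi1 stood 7.30-fold and Gpi1 4.04-fold higher with IL-1β in DATP-like cells.

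Members stood higher in the IL-1β library in each of the 4 classes, most of all in DATP-like cells. A member was counted as higher or lower when its level differed at least 1.5-fold and both sums together held at least 100 UMIs. In AT2-lineage cells 23 of the 37 members considered were higher and 2 lower, where 15.3% of all genes were higher and 7.8% lower. In AT1-like cells 17 of 30 were higher and 1 lower, against 9.94% and 9.86% of all genes. In DATP-like cells 30 of 31 were higher and none lower, against 15.4% and 9.9%. In stromal cells 26 of 37 were higher and none lower, against 6.2% and 27.3%. The median log2 ratio of the members considered was 0.82, 0.68, 2.21 and 1.00 in these classes in turn, and that of all genes 0.10, -0.03, 0.08 and -0.33. Each of these member counts includes genes that reached 100 UMIs through the class in which they were high. The count in AT1-like cells depended on the clustering: 10 members were higher when each library was clustered separately, and 26 when all classes were taken from the coarse clusters. Sizes in DATP-like cells depended on it as well. With Louvain clustering, which named 339 IL-1β cells DATP-like, 20 of 28 ratios to the control that could be compared were smaller by over 1.5 times, Ero1l among them at 6.11, Ndrg1 at 14.3 and Slc2a1 at 3.46.

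**Figure D1:**
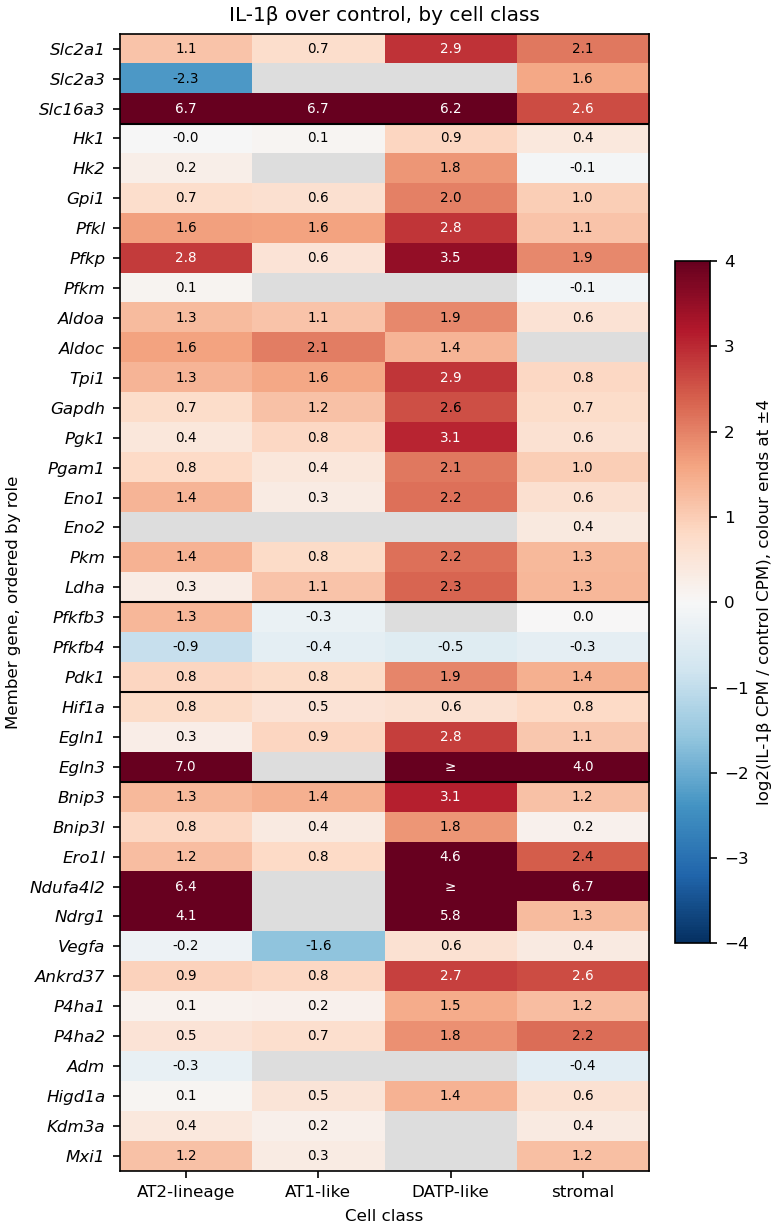
Log2 of the IL-1β level over the control level for the 38 members (rows, ordered by role and divided by lines) in 4 cell classes (columns); grey marks fewer than 100 UMIs over both sums, and the ≥ sign marks a member with no UMI in the control class. Red, higher with IL-1β, fills most of the DATP-like column, and the blue cells are few, with Slc2a3 in AT2-lineage cells and Vegfa in AT1-like cells the deepest.

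The lactate exporter Slc16a3 was close to absent in control epithelium, and its level in control AT2-lineage cells was within what free RNA from stromal cells gives. It stood at 0.14 CPM in control AT2-lineage cells, 0.33 in AT1-like, 2.48 in DATP-like and 3.77 in stromal cells. With IL-1β the same classes held 14.5, 35.0, 184 and 22.9 CPM. The ratio in AT2-lineage cells was 103 (interval 28.2 to 851, from 2 control UMIs), in DATP-like cells 74.1 (28.5 to 275) and in stromal cells 6.09 (4.47 to 8.43). Slc2a1 encodes GLUT1, the widespread glucose importer. Its level was 13.7 CPM in AT2-lineage, 19.1 in AT1-like, 20.4 in DATP-like and 57.4 in stromal cells of the control library, and 30.0, 31.2, 153 and 248 CPM in those of the IL-1β library. Slc2a1 was thus highest in stromal cells in both libraries, and its ratio was 7.48 (5.11 to 11.3) in DATP-like and 4.32 (3.98 to 4.69) in stromal cells, an order that Louvain clustering turned, with 3.46 in DATP-like cells. Slc2a3, which encodes the high-affinity glucose importer GLUT3, was rare and went different ways. It was lower with IL-1β in AT2-lineage cells, from 7.63 to 1.56 CPM. This ratio of 0.20 came to 0.64 when members were used in clustering. Of its 124 UMIs in control epithelium, 75 lay in 1 fine cluster of 199 AT2 cells led by Hp and Cyp2f2. That cluster stood at 29.0 CPM, against a median of 4.24 CPM over the 7 control epithelial clusters. In stromal cells Slc2a3 was higher with IL-1β, from 2.66 to 7.83 CPM.

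All 16 enzymes together took 2453 CPM in control AT2-lineage cells (2427 to 2479) and 4448 CPM with IL-1β (4422 to 4475). In DATP-like cells the sums were 2978 and 15013 CPM, and in stromal cells 3797 and 7132 CPM. Past 1.5-fold, 10 of the 15 enzymes considered were higher with IL-1β in AT2-lineage cells and 9 of 13 in AT1-like cells. In DATP-like cells 14 of 14 were higher and in stromal cells 10 of 15. The shares of all genes higher in these classes in turn were 15.3%, 9.94%, 15.4% and 6.2%. No enzyme was lower past that fold in any class, where 7.8%, 9.86%, 9.9% and 27.3% of all genes were lower. Gapdh, glyceraldehyde-3-phosphate dehydrogenase, went from 818 to 1362 CPM in AT2-lineage cells, from 577 to 1295 in AT1-like, from 843 to 5054 in DATP-like and from 866 to 1436 in stromal cells. Ldha went from 575 to 703 CPM in AT2-lineage cells, a ratio of 1.22 (1.19 to 1.26), from 271 to 597 in AT1-like, from 381 to 1931 in DATP-like and from 462 to 1167 in stromal cells. Enzymes of other steps moved in the same direction in DATP-like cells. Tpi1, triose phosphate isomerase, went from 194 to 1415 CPM there, Pgk1 from 15.5 to 129, Eno1 (enolase) from 143 to 663, Aldoa (aldolase) from 625 to 2355 and Pkm (pyruvate kinase) from 350 to 1617.

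The committed step differed by subunit. Pfkp, the platelet-type phosphofructokinase subunit, went from 2.90 to 20.1 CPM in AT2-lineage cells (ratio 6.94, 5.04 to 9.80) and from 12.996 to 150 CPM in DATP-like cells. Pfkl, the liver-type subunit, went from 21.8 to 67.8 CPM and from 37.7 to 272 CPM in the same classes. Pfkm, the muscle-type subunit, stayed between 4.95 and 12.8 CPM in all 8 sums. Hexokinases, which trap glucose in the cell, moved less outside DATP-like cells. Hk1 had ratios of 0.99 in AT2-lineage, 1.05 in AT1-like and 1.35 in stromal cells, and Hk2 of 1.19 in AT2-lineage and 0.94 in stromal cells, with intervals of 1.03 to 1.37 and 0.85 to 1.04. In DATP-like cells Hk1 stood 1.80-fold (1.1997 to 2.72) and Hk2 3.41-fold (2.31 to 5.13) higher with IL-1β. Gpi1, Pgam1 and the second aldolase gene Aldoc had DATP-like ratios of 4.04, 4.35 and 2.56. The neuronal enolase Eno2 stayed at or below 15.5 CPM and was found mostly in stromal cells. Of the last 500 transcript bases of Gapdh, 77.4% of windows of 98 bases also occur in other annotated genes, mostly pseudogenes, and 49.1% of those of Eno1 occur in Eno1b, so these 2 levels are uncertain. No other member shared such a window.

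**Figure D2:**
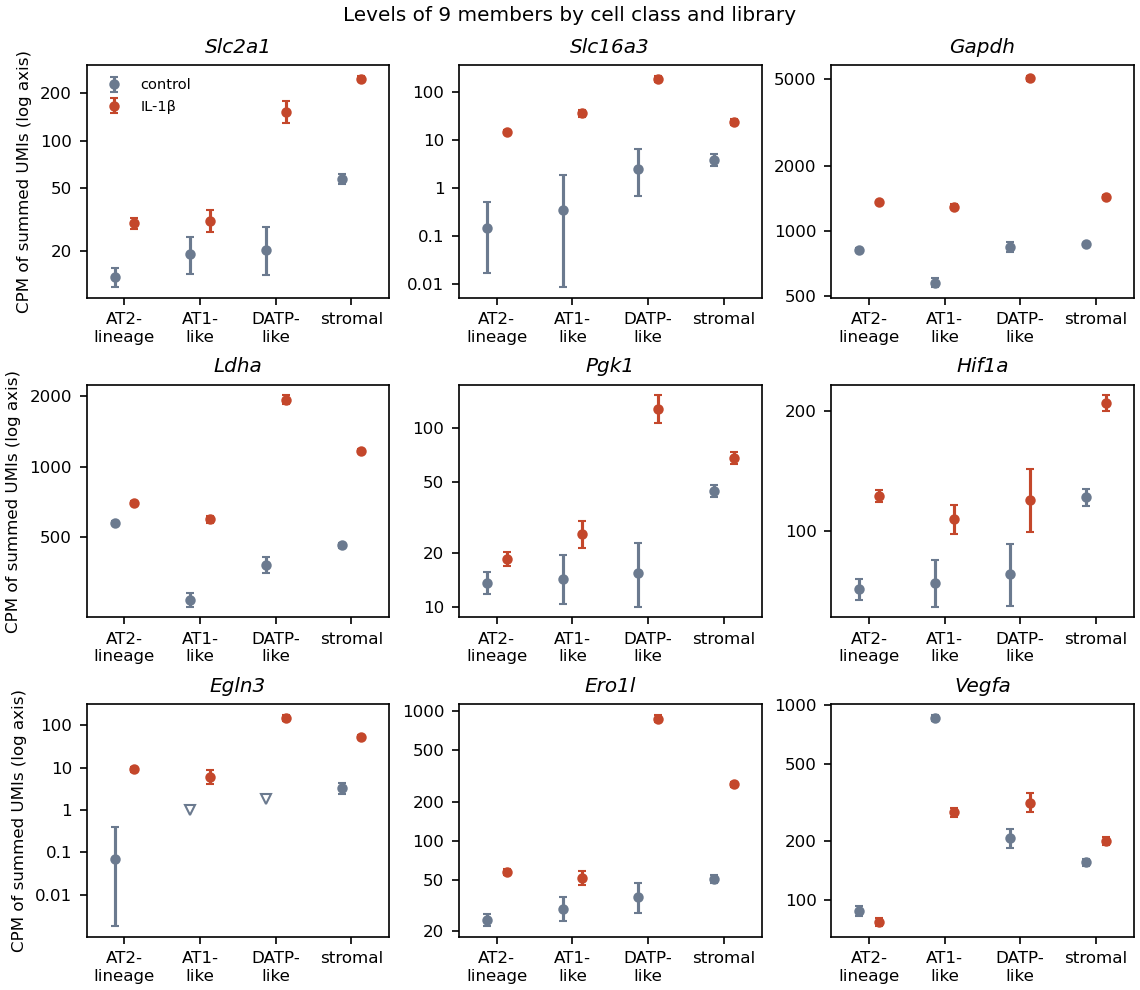
Level in CPM (log axes) of 9 members in 4 cell classes; points are the control library (grey) and the IL-1β library (red), bars are exact 95% counting intervals and open triangles the level that a count of 0 allows. IL-1β DATP-like cells hold the highest point for Slc16a3, Gapdh, Ldha, Pgk1, Egln3 and Ero1l, while Hif1a is highest in stromal cells and Vegfa in control AT1-like cells.

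Share per cell gave the same order. The median cell of the control library drew 0.221% of its UMIs from the 16 enzymes in the AT2-lineage class, 0.245% in AT1-like, 0.253% in DATP-like and 0.312% in stromal cells. With IL-1β the medians were 0.396%, 0.412%, 1.39% and 0.637%. The 10th percentile of IL-1β DATP-like cells, 0.835%, lay above the 90th percentile of IL-1β AT2-lineage cells, 0.733%. It lay below the 90th percentiles of IL-1β AT1-like cells, 0.944%, and stromal cells, 1.02%, so DATP-like cells overlapped with those classes. Without Gapdh the medians were 0.176% in control and 0.927% in IL-1β DATP-like cells. Median depth was 14348 UMIs per cell in the former and 11322 in the latter, and the part of depth in these shares was not tested.

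**Figure D3:**
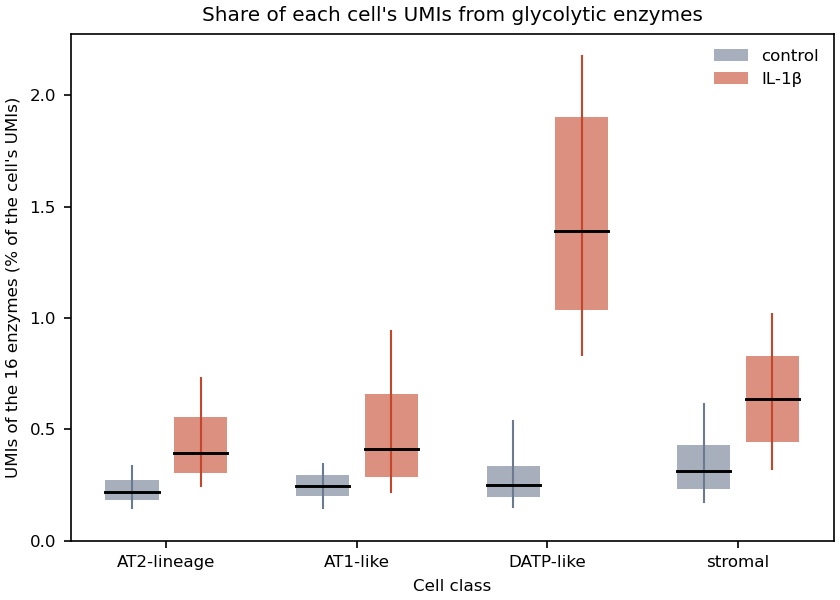
Percentage of a cell's UMIs that came from the 16 glycolytic enzymes, by cell class and library; boxes run from the 25th to the 75th percentile of the cells, black lines are medians and thin lines run from the 10th to the 90th percentile. The IL-1β DATP-like box lies above all others, with a median of 1.39%.

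The regulators of flux did not move as a group. Pfkfb3 makes fructose 2,6-bisphosphate, the activator of phosphofructokinase. It was highest in control AT1-like cells, at 53.3 CPM against 44.1 CPM with IL-1β, and went from 6.57 to 16.4 CPM in AT2-lineage cells. Pfkfb4, a second enzyme of this kind, was lower with IL-1β in AT2-lineage cells, from 49.7 to 26.0 CPM (ratio 0.52, 0.47 to 0.58), and had ratios of 0.76 in AT1-like, 0.71 in DATP-like and 0.79 in stromal cells. Pdk1 encodes a kinase that inhibits pyruvate dehydrogenase. It was higher with IL-1β in all 4 classes, with ratios of 1.80 in AT2-lineage, 1.69 in AT1-like, 3.84 in DATP-like and 2.66 in stromal cells.

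Hif1a mRNA differed little between epithelial classes. In the control library it stood at 71.4 CPM in AT2-lineage, 74.0 in AT1-like, 78.0 in DATP-like and 122 in stromal cells. With IL-1β it stood at 123, 107, 120 and 210 CPM. The DATP-like over AT2-lineage ratio was 1.09 (0.90 to 1.31) in the control library and 0.98 (0.81 to 1.17) in the IL-1β library, so no difference was detectable at this depth, and stromal cells held the highest level in both. The ratio of IL-1β to control was 1.72 (1.60 to 1.85), 1.45 (1.24 to 1.70), 1.54 (1.19 to 1.99) and 1.73 (1.62 to 1.84) in the 4 classes. The hydroxylases that mark HIF for degradation, themselves HIF targets, separated the classes far more. Egln3 had 1 UMI in control AT2-lineage cells and none in control AT1-like and DATP-like cells. With IL-1β it stood at 9.17 CPM in AT2-lineage, 6.09 in AT1-like, 151 in DATP-like and 52.7 in stromal cells. The AT1-like level was below 5.92% of the DATP-like level, and the AT2-lineage level was close to that limit. The limit was measured on Sftpc of the 2031 AT2-lineage cells and was not measured for RNA of the 86 DATP-like cells. Over the IL-1β epithelial clusters Egln3 ran from 1.00 CPM to 39.0 CPM in the second highest, and the part of free RNA was not tested. In DATP-like cells Egln3 was at least 81.2-fold higher with IL-1β, set against the 3 UMIs that a count of 0 allows over the class. Egln1, the main oxygen sensor of most tissues, went from 45.9 to 55.6 CPM in AT2-lineage cells and from 32.2 to 220 CPM in DATP-like cells.

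Among the other HIF targets, genes that were nearly silent in control epithelium had the widest ratios. Ndufa4l2, which encodes a mitochondrial protein that lowers complex I activity in hypoxia, was not detected in control DATP-like or AT1-like cells. It stood at 265 CPM in DATP-like cells and 99.0 CPM in stromal cells with IL-1β, at least 143-fold and 103-fold (60.0 to 194) higher. Ndrg1, a stress-response gene, went from 1.201 to 20.3 CPM in AT2-lineage cells, from 6.19 to 335 in DATP-like and from 18.03 to 43.3 in stromal cells. Ero1l, an oxidase of protein folding, went from 24.4 to 57.2 CPM in AT2-lineage cells, from 36.5 to 877 in DATP-like and from 50.5 to 272 in stromal cells. Its ratio in DATP-like cells was 24.0 (18.4 to 31.8), and 6.11 with Louvain clustering. The mitophagy receptors followed, with Bnip3 from 76.1 to 664 CPM and Bnip3l from 208 to 714 CPM in DATP-like cells. Higd1a, a mitochondrial survival factor, went from 415 to 1100 CPM there and from 454 to 477 CPM in AT2-lineage cells. The collagen prolyl hydroxylases P4ha1 and P4ha2 stood 2.80-fold and 3.56-fold higher in DATP-like cells and 2.34-fold and 4.73-fold higher in stromal cells. Ankrd37, a HIF target of little known function, had ratios of 6.69 in DATP-like and 6.10 in stromal cells, and the MYC antagonist Mxi1 of 2.26 in AT2-lineage and 2.28 in stromal cells. Kdm3a, a histone demethylase, stayed between 12.5 and 30.8 CPM.

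A pair of HIF targets departed from the rest. Vegfa, the vascular growth factor that AT1 cells supply to alveolar capillaries, stood at 853 CPM in control AT1-like cells and 281 CPM with IL-1β, a ratio of 0.33 (0.31 to 0.35). Summed AT1 markers were lower there too, at 21713 and 11354 CPM, and the part of AT1 cell state in the Vegfa level was not tested. In DATP-like cells Vegfa went the other way, from 207 to 315 CPM. Adm, the vasodilator peptide adrenomedullin, was mainly a stromal transcript, with 186 CPM in control and 140 CPM in IL-1β stromal cells, and stood at 2.47 to 23.8 CPM in the epithelial classes, mostly within what free RNA gives.

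DATP-like cells were then set against AT2-lineage cells of the same library, which share the culture and the library. In the control library 12 of 31 members were higher in DATP-like cells and 2 lower, against 17.2% and 6.58% of all genes. Within the IL-1β library 33 of 36 were higher and none lower, against 23.2% and 12.5%. The median log2 ratio was 0.35 for members and 0.20 for all genes in the control library, and 1.88 and 0.20 in the IL-1β library. With Louvain clustering 29 of the 33 IL-1β ratios were smaller by over 1.5 times. With the 25 control cells that the coarser clustering named DATP-like, 4 of 14 called control ratios moved by over 1.5 times, 0 of them toward 1. Of 30 members considered in both libraries, 27 had the larger ratio with IL-1β. The same count over all genes was not computed, so this one has no background to be read against. Ldha, Egln1 and Higd1a were among the members that changed sides. Ldha was lower in DATP-like than in AT2-lineage cells of the control library (ratio 0.66, 0.61 to 0.72) and higher in the IL-1β library (2.75, 2.62 to 2.88). Egln1 had ratios of 0.70 (0.52 to 0.93) and 3.96 (3.42 to 4.57). Higd1a stood at 415 CPM in DATP-like and 454 CPM in AT2-lineage cells of the control library, and at 1100 and 477 CPM with IL-1β. Pkm, Eno1, Aldoa, Vegfa and Bnip3 were higher in DATP-like cells of both, with control ratios of 2.34, 2.35, 1.77, 2.34 and 1.87. The 2 members lower in the control library were Ldha and Pfkm, the latter with an interval that held 1 (0.27 to 1.30). Neither was lower past the fold with Louvain clustering or with all deposited barcodes, where the count was 0.

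**Figure D4:**
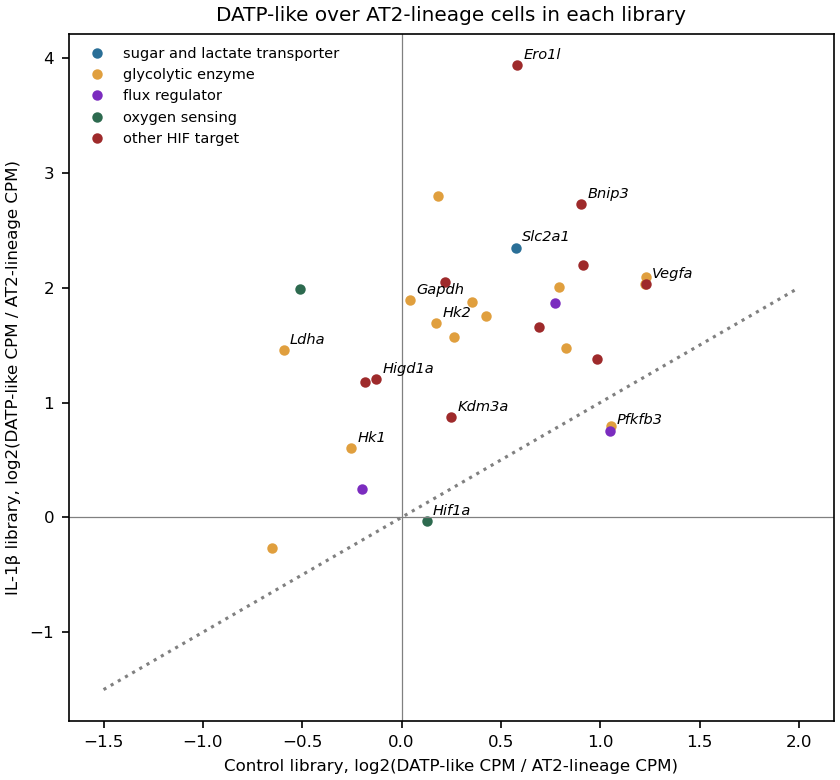
Log2 of the DATP-like level over the AT2-lineage level in the control library (horizontal) and the IL-1β library (vertical) for the 30 members considered in both, coloured by role; the dotted line marks equal ratios. Of the points, 27 lie above the line, Ero1l highest, while Hif1a lies near 0 on both axes. The share of all genes above the line was not computed.

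The 86 DATP-like cells held 3.24% of the epithelial UMIs of the IL-1β library. They held 35.2% of the epithelial UMIs of Ndrg1, 33.3% of Ero1l, 32.1% of Egln3, 29.3% of Ndufa4l2, 25.6% of Slc16a3 and 11.0% of Gapdh. Their share of Hif1a was 3.20% and of Pfkm 2.80%, close to their share of all UMIs. With IL-1β, DATP-like cells had the highest level of the 4 classes for 30 of 38 members, with an interval apart from the next class for 23. In the control library they led for 5 of the 35 members that could be ranked, and stromal cells for 18. How often each class leads over all genes was not computed, so these counts have no background to be read against.

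Finer clusters showed higher enzyme sums with IL-1β outside the DATP-like cells as well. Cells of each library were split further, into 21 epithelial and 4 stromal clusters. The enzyme sum of the 7 control epithelial clusters ran from 2029 to 2978 CPM. That of the 14 IL-1β epithelial clusters ran from 3102 to 15013 CPM, so the sums themselves did not overlap. The interval of the lowest IL-1β sum, 2905 to 3308 CPM, still held the highest control sum. Gapdh, whose level is uncertain, gave 843 CPM of the highest control sum and 979 CPM of the lowest IL-1β sum. Ranges without Gapdh were not compared. Sums of the 13 HIF targets did overlap, with 804 to 1664 CPM in the control and 832 to 4834 CPM in the IL-1β clusters. The least of the IL-1β clusters, 23 cells led by the interferon-response genes Ifit1 and Isg15, stood at 3102 CPM (2905 to 3308). There 7 of 30 members were higher and 7 lower than in control AT2-lineage cells, where 18.1% of all genes were higher. The count of higher members lay near that share, and the share of all genes lower was not computed. The next, 347 AT2 cells led by Gstm1 and Prmt8, stood at 3415 CPM, with 9 of 31 members higher than in control AT2-lineage cells where 9.41% of all genes were. Second to the DATP-like cells came 174 cells named primed AT2-like and led by BC030867, Atp6v0a4 and Susd2, at 7827 CPM (7695 to 7960). That name was weak. The mean log2 fold was 0.18 over the 7 primed markers, with 3 of them higher, and -0.14 over the AT2 markers. In this cluster 31 of 35 members were higher than in control AT2-lineage cells, where 18.2% of all genes were. Its Slc16a3 level was 62.9 CPM, its Egln3 level 39.0 CPM and its Bnip3 level 298 CPM, and it ranked second for 22 members. The DATP-like cluster ranked first for 32 of 38. Ranks of these clusters over all genes were not computed either.

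**Figure D5:**
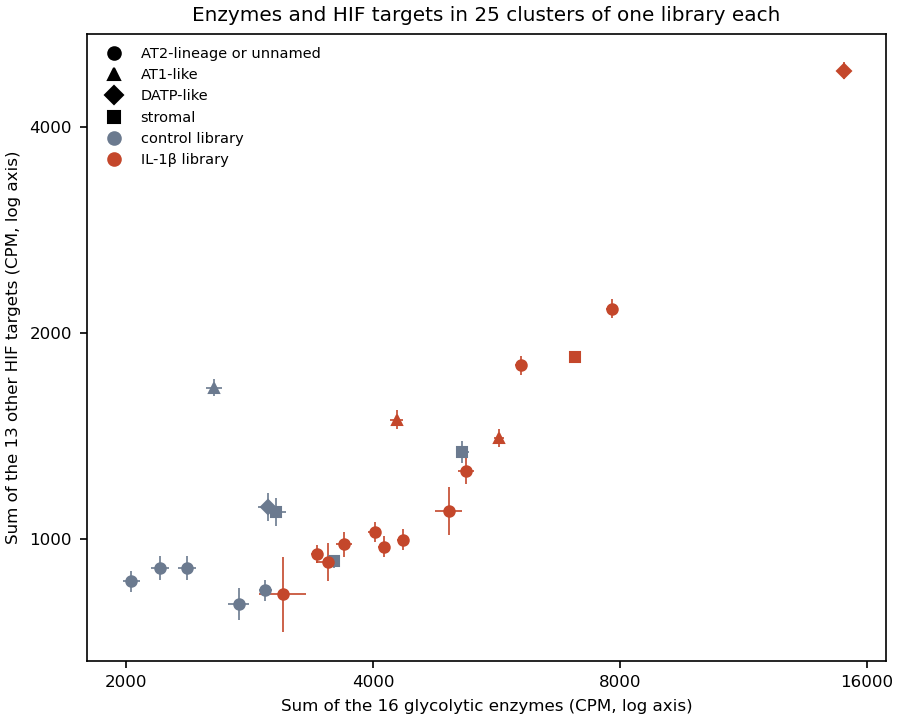
Summed level of the 16 glycolytic enzymes (horizontal) and of the 13 other HIF targets (vertical), both in CPM on log axes, in 25 clusters of 1 library each; colour marks the library, shape the cell class, and bars exact 95% counting intervals. Points of the IL-1β epithelial clusters lie to the right of the control ones, though the bar of the lowest reaches the highest control point. The IL-1β DATP-like cluster at 15013 and 4834 CPM lies apart at the upper right.

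Within the IL-1β library Hif1a again ran differently from its targets over these clusters. Between libraries its point values did not overlap, with 58.0 to 80.5 CPM in the control and 93.9 to 137 CPM in the IL-1β epithelial clusters. Among epithelial clusters it was highest in 242 IL-1β cells named primed AT2-like and led by Cxcl5, Pf4 and Orm1, at 137 CPM. It stood at 120 CPM in the DATP-like cluster and at 199.9 CPM in the IL-1β stromal cluster. The name of the 242 cells rested on close mean log2 folds, 0.32 over primed and 0.29 over AT2 markers. The lowest of the IL-1β epithelial clusters, the interferon-response cells, held 93.9 CPM.

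In AT1-like over AT2-lineage cells the share of members that were higher lay below that of all genes. In the control library 9 of 32 members were higher and 4 lower, against 36.8% and 12.8% of all genes. In the IL-1β library 7 of 36 were higher and 4 lower, against 26.3% and 10.1%. The control split became 7 higher and 8 lower when surfactant, mitochondrial and ribosomal protein genes were left out of the total. It became 6 and 8 when the median gene was set to a ratio of 1, and the IL-1β split 5 and 5. Members higher in AT1-like cells of both libraries on the main scale were Vegfa at ratios of 9.64 and 3.64, Pfkfb3 at 8.10 and 2.68, Eno1 at 3.53 and 1.75, Pkm at 2.95 and 1.90, and P4ha2 at 2.64 and 2.87. Hk2 was lower in both, at 0.45 and 0.37. The 13 other HIF targets together summed higher in AT1-like cells, at 1664 against 869 CPM in the control and 1481 against 1160 CPM in the IL-1β library. Vegfa gave 853 and 281 CPM of these AT1-like sums. In the finer clustering a pair of IL-1β clusters was named AT1-like, and together they held some cells placed in other classes by the coarser one. In 171 cells led by Akap5, Sema3e and Rtkn2 the enzymes summed to 4273 CPM, and in 276 cells led by Serpinb9 and the DATP marker AW112010 to 5696 CPM, against 2555 CPM in the 211 control cells. Both clusters were thus above the control cells, by 4194 CPM at the lower limit of the first against 2613 CPM at the upper limit of the latter.

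Stromal cells carried more of most members than AT2-lineage cells. In the control library 21 of 35 were higher and 5 lower, against 36.7% and 18.8% of all genes, and this split became 15 and 8 with the median gene set to a ratio of 1. In the IL-1β library 24 of 38 were higher and 3 lower, against 20.4% and 30.9%. Adm had ratios of 37.5 and 35.0, Eno2 of 41.6 and 9.24, Slc2a1 of 4.19 and 8.27, and Pgk1 of 3.27 and 3.69. Pfkfb4, Aldoc and Higd1a were lower in stromal cells of both libraries, with Pfkfb4 at 0.13 and 0.20, Aldoc at 0.11 and 0.23 and Higd1a at 0.43 and 0.62.

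The stromal cells of the libraries fell into different clusters, so treatment and stromal cell kind cannot be told apart. Control stromal cells lay in clusters of 592, 108, 74 and 13 cells and IL-1β stromal cells mostly in 1 cluster of 457 cells. Endothelial markers summed to 2.66 CPM in control and 33.4 CPM in IL-1β stromal cells, and their part in the ratios was not tested. Glycolytic enzymes summed to 3579, 5136 and 3045 CPM in the 3 larger control clusters and to 7038 CPM in the IL-1β cluster. For Slc2a1 the 3 control clusters stood at 63.6, 42.9 and 36.0 CPM and the IL-1β cluster at 256 CPM. For Ero1l they stood at 39.5, 92.1 and 50.1 CPM against 271 CPM, and for Ndufa4l2 at 0.43, 3.61 and 0.64 CPM against 98.8 CPM. For some members a control cluster reached the level of the IL-1β cluster. In the control cluster of 108 cells Eno1 stood at 448 CPM and Pgk1 at 73.6 CPM, against 449 and 68.2 CPM in the IL-1β cluster. Adm ran from 117 to 445 CPM over the 3 larger control clusters, against 122 CPM.

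A second list, 64 other genes of the pathway with no member in it, had smaller median ratios. It comprises further enzymes and transporters of sugar metabolism, regulators of HIF, further HIF targets and genes of pyruvate entry and the tricarboxylic acid cycle. In AT2-lineage cells 12 of the 50 considered were higher with IL-1β and 5 lower, in AT1-like cells 8 and 3 of 42, in DATP-like cells 9 and 1 of 26, and in stromal cells 14 and 14 of 49. The higher genes were 24%, 19.0%, 34.6% and 28.6% of those considered, above the 15.3%, 9.94%, 15.4% and 6.2% of all genes. The lower genes were 10%, 7.14%, 3.85% and 28.6%, against 7.8%, 9.86%, 9.9% and 27.3% of all genes, so the stromal share lay near its background. Median log2 ratios were 0.01, 0.03, 0.09 and -0.26 against 0.10, -0.03, 0.08 and -0.33. Further HIF targets made up most of the higher genes, with 9 of 12, 7 of 8, 7 of 9 and 11 of 14. The 10 genes of pyruvate entry and the tricarboxylic acid cycle gave no higher gene in any class, 1 lower in AT1-like cells and 4 lower in stromal cells, where 27.3% of all genes were lower.

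Named genes of that list are among those with the largest ratios. In AT2-lineage cells Angptl4, a lipase inhibitor, went from 3.25 to 37.9 CPM, Plod2, a collagen lysyl hydroxylase, from 1.70 to 14.1 and the gluconeogenic Fbp1 from 1.77 to 10.8. In DATP-like cells Hilpda, a lipid droplet protein, went from 11.1 to 87.3 CPM, the cytokine Mif from 562 to 3210 and Fam162a, a mitochondrial protein, from 142 to 803. In AT1-like cells Lox, a collagen cross-linking oxidase, went from 52.6 to 10.6 CPM, while Angptl4 and Mif stood 4.55-fold and 2.82-fold higher. In stromal cells the carbonic anhydrase Car9 went from 0.22 to 41.1 CPM, Gbe1, the glycogen branching enzyme, from 12.6 to 55.5, Hilpda from 20.4 to 85.4, and Bpgm, which makes 2,3-bisphosphoglycerate, from 91.2 to 21.2. The HIF-2α gene Epas1 is in this list, and in AT2-lineage cells it stood at 173 CPM in the control and 115 CPM with IL-1β.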

How the data were processed

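Droplet-based single-cell RNA-seq (10x Chromium, 3′ kit) of organoid co-cultures was analysed, 1 library per condition. The authors deposited raw UMI counts per gene and cell barcode; their processing notes name Cell Ranger, Scanpy 1.3.6, GRCm38 and mm9, without roles. Barcodes were kept (2081 control, 3058 IL-1β) when they held over 2000 UMIs and between 500 and 7000 genes, and Scrublet was run per library. Counts were scaled to 10000 per cell, log-transformed and clustered with Leiden (scanpy 1.11.5, 50 components, 15 neighbors) at resolution 1.0, and at 2.0 for DATP-like cells, because at 1.0 no IL-1β cluster was named DATP-like. Members and the 64 other pathway genes were left out of clustering.

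Clusters were named within each library from marker genes, by a rule that was set after clusters had been seen. DATP-like, AT1-like, airway and cycling names needed a mean log2 fold of at least 0.5 and 3 or more markers higher. AT2 and primed AT2 names had no such cut. They needed 3 or more AT2 markers detected in at least 50% of cells and no marker of the former names among the 10 leading genes. The larger of the AT2 and primed mean folds then decided. Members and gene lists were chosen with earlier results of these data known. UMIs were summed per class; Poisson intervals of CPM and conditional binomial intervals of ratios are exact at 95% and cover counting error only. Members were to be given by value in each class, and of the other pathway genes at most 4 per comparison, largest ratio first, with 1 gene this rule selects not reported here; Epas1 was named after its values were seen. In total 10 comparisons were made under 9 other settings of clustering, scaling and filters, and 3 more chosen after seeing the data. The ratio step was tested on simulated counts. Gene IDs matched GENCODE M21 (GRCm38) and promoters are from RefSeq.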

Additional observations from a re-analysis of the deposited data

Results flagged for a closer look

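A pair of members had ratios of IL-1β to control in opposite directions in different cell classes. Slc2a3 stood at a ratio of 0.204 (0.14 to 0.30) in AT2-lineage cells and of 2.94 (1.95 to 4.51) in stromal cells. Over the alternatives the first ran from 0.186 to 0.642 and the second from 2.64 to 3.69. Of the 124 control epithelial UMIs of Slc2a3, 75 lay in 1 cluster of 199 AT2 cells. Vegfa stood at a ratio of 0.330 (0.31 to 0.35) in AT1-like cells and of 1.52 (1.30 to 1.78) in DATP-like cells. These ran from 0.303 to 0.444 and from 1.27 to 2.34 over the alternatives. With 1 library per condition the difference between classes was not tested for either gene.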

How the results depend on the processing

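No paired analysis was possible because each condition has 1 library and the labels carry no replicate numbers, and no replicate could be left out. Of 236 counts of higher or lower members recomputed under 12 alternatives, 212 stayed within 1.5 times the value reported. Some alternatives could not move some values, so these counts overstate the stability. The settings at resolution 0.5 and 2.0 kept the DATP-like and stromal cells the same by construction. A minimum of 20 UMIs changes no ratio. Leaving out cycling clusters altered only the control AT2-lineage cells. Each of the 25, 18, 29 and 26 called members with an alternative value in AT2-lineage, AT1-like, DATP-like and stromal cells between the libraries kept its direction in those values, and 23, 12, 24 and 23 of them stayed past 1.5-fold. Egln3 in DATP-like cells had no such value and Ndufa4l2 only 2, since their control count was 0. Of finite ratios, 3 of 25, 3 of 18, 21 of 28 and 0 of 26 moved by over 1.5 times under at least 1 alternative, 20 of the 21 with Louvain. With all classes taken at resolution 1.0, no IL-1β and 25 control cells were DATP-like. Comparisons that need IL-1β DATP-like cells could not be computed there. For DATP-like over AT2-lineage cells of the control library, 4 of 14 called ratios moved by over 1.5 times, 0 of them toward 1. Setting the median gene to a ratio of 1 shifted stromal ratios between libraries by 0.33 on the log2 scale and stromal over control AT2-lineage ratios by 0.30.

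Between libraries, 1 member was lower in AT2-lineage cells with separate clustering, with members used in clustering or with all barcodes. In AT1-like cells 10 were higher with separate clustering and 26 with all classes at resolution 1.0, and 2 were lower with members used in clustering, with a minimum of 20 UMIs or at resolution 1.0. In DATP-like cells 1 was lower with Louvain clustering or without surfactant, mitochondrial and ribosomal protein genes in the total. For DATP-like over AT2-lineage cells of the control library, 1 was lower with separate clustering, with members used or without cycling clusters, and 0 with Louvain, all barcodes or without the cells of highest doublet score. For AT1-like over AT2-lineage cells, 8 were lower in the control library under either other scaling. In the IL-1β library 11 were higher with members used or all barcodes and 15 at resolution 1.0, with 1 and 0 lower under all barcodes and resolution 1.0. For stromal over AT2-lineage cells of the control library, 8 were lower with the median ratio set to 1.

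Log2 ratios that changed sign were Pfkfb3 in control DATP-like over AT2-lineage cells, -0.38 with separate clustering, and Hk2 in IL-1β DATP-like over AT2-lineage cells, -0.037 with Louvain. In IL-1β AT1-like over AT2-lineage cells Egln3 came to 0.0056 with all barcodes and 0.89 at resolution 1.0, and Adm to 0.34 at resolution 1.0. The cause was not tested. Louvain clustering named 339 IL-1β cells DATP-like, 49 of them among the 86, and gave 24 members higher than in AT2-lineage cells. Depth limits the smallest classes most, since the 86 cells hold 1008015 UMIs and a count of 0 there allows up to 3.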
